A study of Mus musculus with 28 samples.

Results

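The intermediate filament genes of the nervous system were read as the 9 rows of the count table named Nes, Vim, Gfap, Ina, Nefl, Nefm, Nefh, Prph and Sync, of 28244 genes in all. All 9 rows held counts, and all 9 passed the filter on low counts that left 17393 genes for testing. In brief, Nes and Vim were abundant in every neural stem cell line, and Gfap ranged widely among the lines, those from brain included. Gfap was at least 2-fold lower in 4 of the 5 pNSC lines than in the brain line of the same experiment. In the other it was lower by under 2-fold. Of all tested genes, 4.03% to 9.5% were called lower in these comparisons, by a rule given further on. Nefl, Nefm, Nefh and Prph were high in the neural crest stem cells of dorsal root ganglia alone.

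The RNA-seq data cover 28 mouse samples in 11 groups and address whether neural stem cell (NSC) lines grown from tissues outside the central nervous system, the peripheral neural stem cells (pNSCs), resemble NSCs from brain. In the Nes-GFP experiment, with 2 samples per group, GFP is driven by regulatory elements of Nes, GFP+ cells were sorted from adult lung (about 4 to 6 weeks old) or postnatal tail (about day 1 to 5), and the groups were Tail-pNSC, Lung-pNSC, Brain-NSC and the source cells Tail and Lung. In the Sox2-GFP experiment, with 3 samples per group, GFP was knocked into Sox2, and Sox2-GFP lung pNSC came from GFP+ postnatal lung cells beside Sox2-GFP brain NSC. In the Wnt1Cre-mTmG experiment, with 3 samples per group, Wnt1-Cre turns neural crest progeny from Tomato+ to GFP+, and the lines were Wnt1Cre-mTmG tail pNSC and Wnt1Cre-mTmG DRG pNSC, which came from postnatal tissue and stayed Tomato+ and GFP-, Wnt1Cre-mTmG brain NSC, and neural crest stem cells from dorsal root ganglia of adult wild-type mice (DRG NCSC). The study grew lines of that kind from unsorted cells and from sorted GFP- cells, and which of them were sequenced is not given in the sources used here. By the study's methods a pNSC line began as a hand-picked cluster in medium with EGF and bFGF, so it may stand for 1 clone, and brain NSCs were grown from whole brain, whose age is not given per line. All samples carry the strain label C57BL/6, whereas the study's methods name other backgrounds for its wild-type mice. The labels do not say whether replicates are separate animals, lines or dishes, so each p-value measures the spread between these samples, which may be technical. They also do not say whether Tail and Lung were cultured or sorted.

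Intermediate filaments are rope-like polymers of coiled-coil proteins that give cells mechanical strength. In the nervous system their makeup follows the cell's stage and type: nestin (Nes) with vimentin (Vim) in dividing progenitors, glial fibrillary acidic protein (Gfap) in astrocytes and radial stem cells of the adult brain, alpha-internexin (Ina) in young neurons, the light, medium and heavy neurofilament subunits (Nefl, Nefm, Nefh) in axons, and peripherin (Prph) in peripheral neurons. Nestin assembles poorly alone and pairs with vimentin. Syncoilin (Sync) is an atypical member known mostly from muscle, where it binds the link between filaments and the membrane.

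These genes were chosen as members of 1 family, and a stretch typical of it was searched for by its amino acid pattern. That pattern itself fixes some of the bases, so the likeness within the stretch is partly built in. At the end of the coiled-coil rod, 7 of the 8 GENCODE transcripts searched (GRCm38, all members but Vim) hold 1 stretch of 27 coding bases of the same pattern, and only Sync holds none. It is printed here as a description of the counted transcripts. Capitals mark the 14 bases that are the same in all 7.

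Nes: gTgGCtaCaTACAGgActcTgcTgGAg
Gfap: aTcGCcaCcTACAGgAaatTgcTgGAg
Ina: aTcGCagCtTACAGgAagcTccTgGAa
Nefl: aTtGCagCtTACAGaAaacTctTgGAa
Nefm: aTcGCcgCgTACAGgAaacTccTaGAg
Nefh: aTtGCcgCtTACAGaAagcTccTgGAa
Prph: aTaGCcaCcTACAGgAagcTacTgGAa

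Against Prph, Gfap, Ina and Nefh each share 22 of the 27 bases, Nefm 20, and Nes and Nefl 19 each. The longest exact run shared by any pair of these transcripts is 35 bases, between Nefm and Prph, and the next longest is 23 bases.

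Promoter sequence is shown for 4 of the members that have an entry in the promoter table. Nes and Ina were found in all stem cell lines and in DRG NCSC, Gfap varied widely among the lines, and Prph was highest in DRG NCSC. Each line gives the 100 bases before the RefSeq start site (GRCm38.p6), 5′ to 3′ on the gene's strand. Capitals mark matches on either strand to TATAAA, the usual form of the TATA box, to CCAAT, the promoter element of that name, or to GGGCGG, known as the GC box.

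Nes, chr3:87970993-87971092, plus strand: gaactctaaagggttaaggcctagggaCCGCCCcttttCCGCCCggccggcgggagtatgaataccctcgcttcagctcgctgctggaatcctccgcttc
Gfap, chr11:102897201-102897300, minus strand: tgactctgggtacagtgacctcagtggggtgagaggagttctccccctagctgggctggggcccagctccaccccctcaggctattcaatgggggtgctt
Ina, chr19:47014581-47014680, plus strand: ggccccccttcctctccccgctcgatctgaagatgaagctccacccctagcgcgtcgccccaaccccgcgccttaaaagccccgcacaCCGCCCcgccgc
Prph, chr15:99055074-99055173, plus strand: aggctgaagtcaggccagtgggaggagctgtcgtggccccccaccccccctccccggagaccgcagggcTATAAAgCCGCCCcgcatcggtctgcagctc

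The Nes window holds 2 GC boxes, Ina 1, Prph 1 TATA box and 1 GC box, and Gfap none of the 3 motifs. Over 32851 mouse promoter windows of the same length, 5.56% hold TATAAA, 18.9% hold CCAAT and 24.7% hold GGGCGG on either strand. These letters are a description of the windows. Entries for Nefl, Nefm and Nefh are not in the promoter table used.

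On GRCm38 the genes lie on 7 chromosomes: Nes at chr3:87971078-87980451, Vim at chr2:13573927-13582826, Gfap at chr11:102887336-102900912, Ina at chr19:47014698-47025327, Nefh at chr11:4938754-4948064, Prph at chr15:99055174-99058978 and Sync at chr4:129287617-129308559. Nefl (chr14:68083863-68089095) and Nefm (chr14:68082590-68124846) are neighbours on opposite strands, and their annotated exons overlap by 1108 bases. The sources do not say whether counting used strand, so reads from that overlap cannot be assigned to 1 of the 2 genes. The transcripts of Nefl and Nefm used for levels per kb lie 30.2 kb apart, so the overlap involves another annotated transcript. By gene coordinates, Gfap, Ina and Sync also overlap a gene on the other strand (Gm26668, Nt5c2 and Rbbp4). Whether exons overlap there was not examined.

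Library totals ran from 9808246 to 22637031 counts, and 3 counts, taken as the least amount detected, stood for 0.133 to 0.306 cpm. Levels are given as cpm, the read count relative to library size, with library sizes corrected by edgeR's TMM factors. Replicates lay close together except for DRG NCSC replicate 3, whose squared difference from the other 2 was 16.4 and 20.4 times counting error, against 1.09 to 2.83 times for all other pairs. NSC markers (Sox1, Sox2, Pax6, Olig2, Fabp7) summed to between 3589 and 4755 cpm in the 21 libraries of brain NSCs and pNSCs, 311 to 322 cpm in DRG NCSC, and 12.3 to 15.5 cpm in Tail and Lung. In DRG NCSC, labelled as NSC, markers of Schwann cells and neural crest were high: Sox10 lay between 646 and 902 cpm, against at most 15.5 cpm in the lines, Ngfr between 1186 and 1235 cpm, against at most 3.67 cpm, and Erbb3 between 848 and 982 cpm, against at most 1.17 cpm.

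Nes was high in all stem cell lines. In the 21 libraries of the 8 lines it lay between 599 and 1956 cpm, against 276 and 301 cpm in Lung and 74.2 and 76.9 cpm in Tail. Tail-pNSC held the most, at 1956 and 1909 cpm. Wnt1Cre-mTmG brain NSC followed at 1698, 1684 and 1663 cpm, then Wnt1Cre-mTmG DRG pNSC at 1637, 1609 and 1600 cpm. The 3 brain lines themselves were far apart: Brain-NSC held 1413 and 1408 cpm, and Sox2-GFP brain NSC held 605, 600 and 599 cpm, the lowest of all lines. Between those lay Wnt1Cre-mTmG tail pNSC (906, 911 and 898 cpm), Lung-pNSC (835 and 815 cpm) and Sox2-GFP lung pNSC (737, 728 and 734 cpm). DRG NCSC gave 1121, 1219 and 1515 cpm, the widest spread of any group, and overlapped Brain-NSC only through replicate 3. No other neighbours in the order overlapped. Nes elements drove the GFP by which the Nes-GFP cells were sorted, so the Nes level of Tail-pNSC and Lung-pNSC is not independent of how they were chosen. In all these bulk samples, fewer cells of a type and less RNA per cell cannot be told apart.

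Vim was the most abundant of the 9 genes per kb of transcript in every group, with 73.4% to 97.9% of their summed cpm per kb. It varied little among the lines, from 1291 to 2832 cpm in the 21 libraries. DRG NCSC stood above them all at 6703, 6680 and 6976 cpm. Tail (1686 and 1706 cpm) and Lung (1048 and 1034 cpm) were below most lines. Per kb, the Nes level was 0.352 ± 0.0128 of the Vim level in Tail-pNSC (SD, n = 2), 0.287 ± 0.0015 in Wnt1Cre-mTmG DRG pNSC (n = 3) and 0.265 ± 0.000462 in Brain-NSC (n = 2). The ratio was 0.117 ± 0.00149 in Sox2-GFP brain NSC (n = 3), 0.0676 ± 0.00915 in DRG NCSC (n = 3) and 0.0159 ± 0.00054 in Tail (n = 2). Brain lines thus spanned 0.117 to 0.265 in this ratio, and 3 of the 5 pNSC lines fell inside that span, with Tail-pNSC and Wnt1Cre-mTmG DRG pNSC above it.

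**Figure D1:**
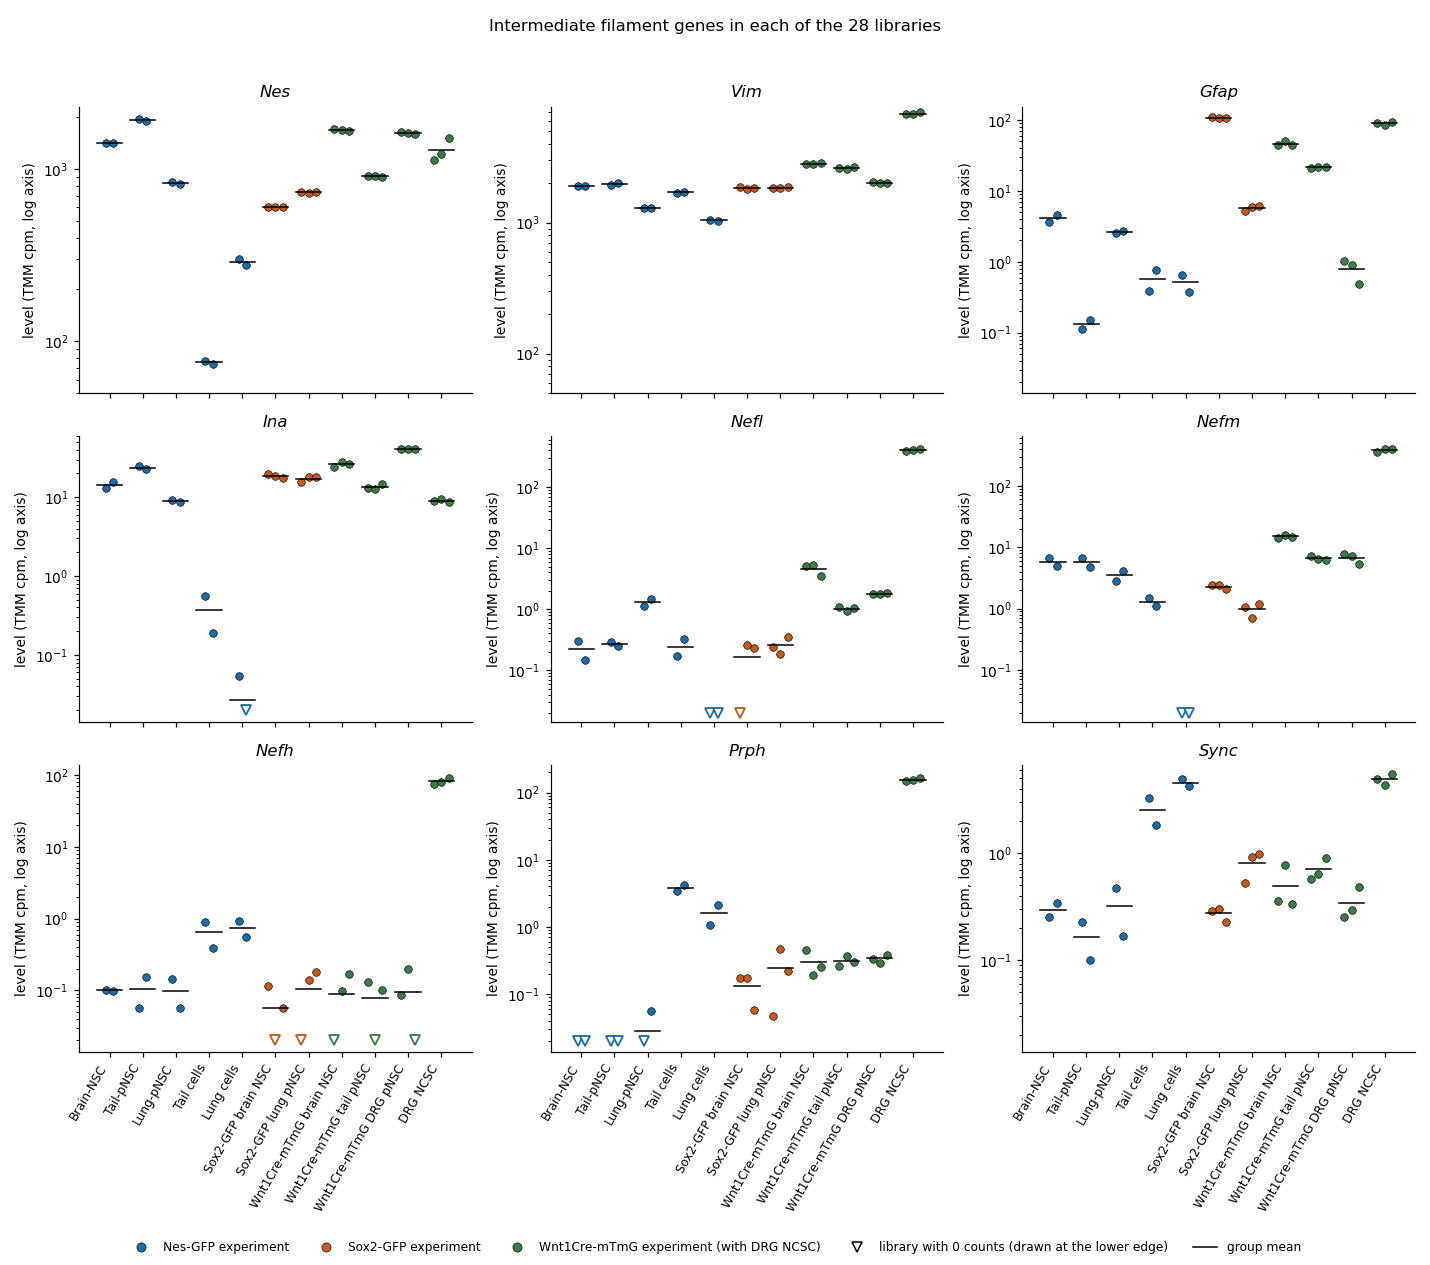
Level of each of the 9 genes in every one of the 28 libraries (cpm with TMM factors, log axis; 1 point per library, grouped by the 11 groups). Nes and Vim are high in all lines, Gfap is spread over the lines from 0.114 to 110 cpm, and Nefl, Nefm, Nefh and Prph are high only in DRG NCSC.

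Gfap varied most among the lines of the members with counts in every line. Sox2-GFP brain NSC held 110, 107 and 108 cpm (1912, 2465 and 1887 counts), Wnt1Cre-mTmG brain NSC 45, 50 and 44.1 cpm, and Brain-NSC 3.7 and 4.53 cpm (73 and 93 counts). Among the pNSCs, Wnt1Cre-mTmG tail pNSC held 20.9, 21.8 and 21.6 cpm and Sox2-GFP lung pNSC 5.26, 5.9 and 6.13 cpm. Lung-pNSC held 2.56 and 2.74 cpm and Wnt1Cre-mTmG DRG pNSC 0.481 to 1.02 cpm. Tail-pNSC was at the limit, with 2 and 3 counts. DRG NCSC, which is no brain cell, held 90.4, 85.9 and 94.7 cpm, second to Sox2-GFP brain NSC without overlap; glial cells of peripheral nerve are also known to make Gfap. Wnt1Cre-mTmG DRG pNSC, Tail and Lung did not differ beyond their spread, each at 5 to 12 counts.

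The astrocyte markers (Aqp4, Aldh1l1, S100b, Slc1a2, Slc1a3, Aldoc, Gja1) varied less in sum and fell with Gfap in part. Their sum ran from 1683 to 4480 cpm in the lines, with 7 of 7 above 3 counts in each. Lung-pNSC, low in Gfap, had the highest sum (4429 to 4480 cpm). Sox2-GFP brain NSC, high in Gfap, lay at 4381 to 4411 cpm, and Wnt1Cre-mTmG DRG pNSC lay at 1683 to 1696 cpm. Against the brain line of the same experiment, by the rule for calls given further on, 4 of the 7 were lower and none higher in Tail-pNSC (median log2 -2.00) and in Sox2-GFP lung pNSC (-1.88), and 3 were lower and none higher in Wnt1Cre-mTmG DRG pNSC (-0.89). Of all tested genes, 6.54% (Tail-pNSC), 9.5% (Sox2-GFP lung pNSC) and 5.72% (Wnt1Cre-mTmG DRG pNSC) were called lower. In Wnt1Cre-mTmG tail pNSC, where Gfap was called lower, 1 was lower and none higher (median log2 0.32), against 8.47% and 8.41% of all tested genes. The markers summed to 3454 to 3484 cpm there, against 3303 to 3326 cpm in Wnt1Cre-mTmG brain NSC. In Lung-pNSC, where Gfap was not called, 1 was higher and 1 lower (median log2 0.43), against 4.61% and 4.03%. Their part in the Gfap levels was not tested.

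Ina, the neuronal filament gene, was found in all lines at modest levels, from 8.65 to 41.1 cpm. Wnt1Cre-mTmG DRG pNSC held the most (41.1, 41.1 and 40.6 cpm), above Wnt1Cre-mTmG brain NSC (23.9, 28.1 and 26.3 cpm), which overlapped Tail-pNSC (25 and 22.6 cpm). Lung-pNSC held 9.3 and 8.65 cpm, overlapping DRG NCSC at 9.03, 9.36 and 8.57 cpm. Tail had 10 and 3 counts, and Lung had 1 and 0.

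The neurofilament genes set DRG NCSC apart. There Nefl gave 397, 413 and 423 cpm, Nefm 360, 399 and 394 cpm, and Nefh 75.7, 81.1 and 91.1 cpm. Over the other 25 libraries the highest values were 5.22 cpm for Nefl, 16.1 cpm for Nefm and 0.924 cpm for Nefh. Nefm was present in all lines (15 to 174 counts), most in Wnt1Cre-mTmG brain NSC (14.1, 16.1 and 14.7 cpm) and least in Sox2-GFP lung pNSC (1.05, 0.697 and 1.2 cpm). Nefl was sparser, with 41 to 58 counts in Wnt1Cre-mTmG brain NSC, 18 to 26 counts in Wnt1Cre-mTmG DRG pNSC, Wnt1Cre-mTmG tail pNSC and Lung-pNSC, and 0 to 8 in the other lines. Nefh was at or under 3 counts in 20 of the 21 libraries of the lines, so that its presence was not detectable at this depth. Per kb, Nefm was 0.948 times Nefl in DRG NCSC but 2.7 to 26.2 times Nefl in the lines, where the shared exon bases and low counts limit the ratio.

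**Figure D2:**
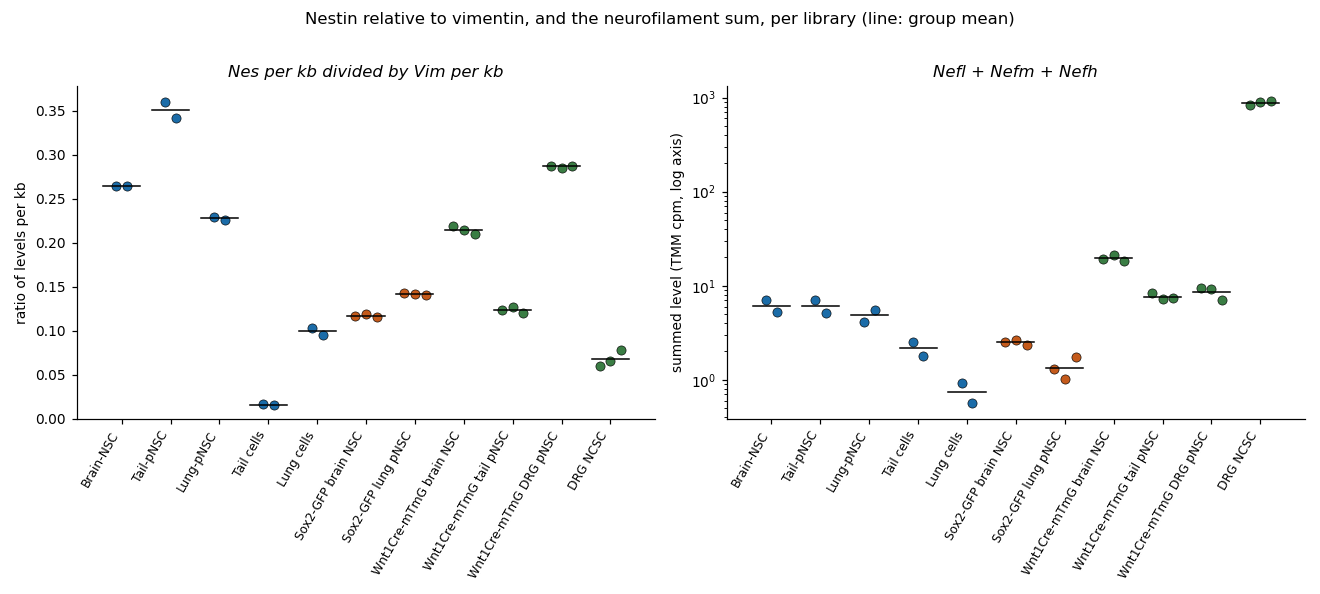
Left, the Nes level per kb divided by the Vim level per kb in each library; right, the sum of Nefl, Nefm and Nefh in cpm (log axis), 1 point per library, a line at each mean of the 11 groups. DRG NCSC has the lowest ratio but for Tail, and its neurofilament sum (833 to 908 cpm) lies far above the next group, Wnt1Cre-mTmG brain NSC (18.3 to 21.4 cpm).

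Prph, the filament gene of peripheral neurons, followed Nefh rather than Nefm. DRG NCSC held 147, 152 and 164 cpm, Tail 3.37 and 4.28 cpm, and Lung 1.09 and 2.12 cpm. In the lines it reached at most 10 counts, and all 4 libraries of Tail-pNSC and Brain-NSC had none, which at 3 counts allows up to 0.145 to 0.168 cpm before scaling. This limit covers counting error only.

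Sync, the muscle-linked member, was lowest in the lines. It gave 4.95, 4.3 and 5.48 cpm in DRG NCSC, 4.89 and 4.24 cpm in Lung and 3.26 and 1.85 cpm in Tail, where DRG NCSC and Lung overlapped. The lines stayed between 0.101 and 0.977 cpm (2 to 22 counts), and Sox2-GFP lung pNSC, Wnt1Cre-mTmG tail pNSC and Wnt1Cre-mTmG brain NSC overlapped in that order.

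Sensory neuron markers moved with the neurofilament genes and Prph. Avil lay between 82.0 and 88.9 cpm in DRG NCSC and reached at most 3.71 cpm elsewhere, and Scn9a lay between 36.3 and 42.7 cpm against at most 1.07 cpm. Scn10a (16.8 to 22.6 cpm), Pou4f1 (15.7 to 18.5 cpm), Isl1 (7.96 to 9.41 cpm) and Tlx3 (5.51 to 6.53 cpm) were also highest there, with at most 0.249, 8.11, 1.28 and 0.449 cpm elsewhere. Isl1, Scn10a, Scn9a and Tlx3 were at 0 in every library of Wnt1Cre-mTmG brain NSC and Wnt1Cre-mTmG DRG pNSC. The wider neuron list (Tubb3, Map2, Rbfox3, Snap25, Syt1, Elavl3, Elavl4, Dcx, Stmn2) gave a lower sum in DRG NCSC, 750 to 800 cpm against 905 to 1850 cpm in the lines. Most of its called genes moved with the neurofilament genes against Wnt1Cre-mTmG brain NSC and Wnt1Cre-mTmG DRG pNSC, but they were split against Wnt1Cre-mTmG tail pNSC. Of the 9, 5 were higher and 2 lower in DRG NCSC than in Wnt1Cre-mTmG brain NSC (median log2 2.47), against 21.5% and 14% of all tested genes. In Wnt1Cre-mTmG DRG pNSC, 5 were lower and 2 higher than in DRG NCSC (median -2.83), against 22.7% and 14%. In Wnt1Cre-mTmG tail pNSC, 4 were lower and 3 higher than in DRG NCSC (median -0.74), against 22.7% and 14.4%. Mesenchymal markers (2949 to 3581 cpm, 7 of 7 above 3 counts) and leukocyte markers (558 to 587 cpm, 4 of 4) were also higher in DRG NCSC than in any line, where they reached at most 431 and 3.95 cpm. The part of these cell types in the DRG NCSC values was not tested.

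Each pNSC line was then compared with the brain line of its own experiment, to ask where its filament genes differ from those of brain NSCs. A gene was called where edgeR's quasi-likelihood test gave a Benjamini-Hochberg adjusted p under 0.05 and the log2 fold change was at least 1 in size. Nes, Vim and Ina were called in none of the 5 comparisons, with log2 fold changes of -0.89 to 0.45, -0.56 to 0.045 and -0.96 to 0.72. Gfap was called lower in 4 of the 5, Nefm in 3 and Nefl in 2, while Nefl was called higher in 1 and Sync in 1. Of all tested genes, 4.03% to 9.5% were called lower and 2.97% to 8.41% higher. Tail-pNSC and Lung-pNSC share the Brain-NSC samples, and both Wnt1Cre-mTmG lines share Wnt1Cre-mTmG brain NSC.

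In Tail-pNSC, 1 of the 9 genes was called, where 10.8% of all tested genes were (4.25% higher and 6.54% lower). Gfap was lower, at 2 and 3 counts against 73 and 93, a ratio of 30.7 (95% interval 12.9 to 95.9, counting error only; adjusted p = 1.07e-14, edgeR). Nes (log2 0.45, SE 0.0632, adjusted p = 1.44e-07) and Ina (0.72, SE 0.0988, adjusted p = 1e-07) were past the p threshold, as 45.9% of tested genes were, but under 2-fold, and their samples did not overlap those of Brain-NSC. Vim differed by 0.045 (SE 0.032, adjusted p = 0.275).

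In Lung-pNSC, Nefl alone was called, at 24 and 26 counts against 6 and 3 in Brain-NSC (5.75-fold, log2 2.48, SE 0.433, adjusted p = 1.39e-05, edgeR), against 8.64% of tested genes (4.61% higher and 4.03% lower). Without Brain-NSC replicate 1 the log2 fold change was 3.08. Nes (-0.77), Vim (-0.56), Ina (-0.68), Gfap (-0.64) and Nefm (-0.76) were all lower past the p threshold, which 36.6% of tested genes passed, but under 2-fold, with adjusted p from 3.4e-17 to 0.0032. Without Lung-pNSC replicate 2, Nefm passed both thresholds (log2 -1.02), which made 2 calls.

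In Sox2-GFP lung pNSC, 3 of the 9 were called, against 14.9% of tested genes (5.42% higher and 9.5% lower). Gfap was 18.8-fold lower than in Sox2-GFP brain NSC (log2 -4.23, SE 0.0704, adjusted p = 1.16e-34, edgeR) and Nefm 2.33-fold lower (log2 -1.21, SE 0.246, adjusted p = 5.4e-05). Sync was 2.97-fold higher at 11, 20 and 22 counts against 5, 7 and 4 (log2 1.54, SE 0.417, adjusted p = 0.0017). Groups did not overlap for any of these. Vim differed by 0.0083 (SE 0.0261, adjusted p = 0.852), and its sign turned under other scalings and filters (-0.037 to -0.0090). Nes was 1.22-fold higher (log2 0.28, adjusted p = 1.26e-05).

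In Wnt1Cre-mTmG tail pNSC, 3 of the 9 were called, against 16.9% of tested genes (8.41% higher and 8.47% lower), and all 3 were lower. Nefl was 4.52-fold lower (log2 -2.16, SE 0.202, adjusted p = 1.14e-11, edgeR), Nefm 2.28-fold lower (log2 -1.18, SE 0.119, adjusted p = 6.74e-11) and Gfap 2.16-fold lower (log2 -1.11, SE 0.0655, adjusted p = 1.74e-17). Ina (-0.96) and Nes (-0.89) lay just under the fold limit (57.9% of tested genes passed the p threshold alone), and Ina passed it without Wnt1Cre-mTmG tail pNSC replicate 3 (-1.02) or Wnt1Cre-mTmG brain NSC replicate 1 (-1.01). The median log2 fold change of the 8 members with a value was -0.93, against 0 over all tested genes. Markers of other cells moved in this comparison too: mesenchymal markers summed to 423 to 431 cpm against 33.5 to 34.7 cpm in the brain line, with 6 of 7 called higher, and 5 of the 9 neuron markers were higher and 1 lower, while Nefl and Nefm were lower. Their part in these values was not tested.

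In Wnt1Cre-mTmG DRG pNSC, the same 3 genes were called, against 8.69% of tested genes (2.97% higher and 5.72% lower). Gfap was 58.4-fold lower at 12, 9 and 5 counts against 504, 517 and 522 (log2 -5.84, SE 0.142, adjusted p = 7.06e-29, edgeR). Nefl was 2.58-fold lower (log2 -1.35, SE 0.212, adjusted p = 1.88e-06) and Nefm 2.23-fold lower (log2 -1.15, SE 0.138, adjusted p = 9.2e-09). Ina was 1.57-fold higher (log2 0.65), past the p threshold that 41.1% of tested genes passed, and Nes differed by little (log2 -0.058, SE 0.052, adjusted p = 0.421). The 2 pNSC lines of this experiment differed from each other in 2 of the 9 genes, against 16.3% of tested genes (9.31% higher and 7.03% lower): Gfap was 27-fold higher in the tail line (log2 4.73, SE 0.159, adjusted p = 4.03e-25) and Ina 3.04-fold lower (log2 -1.61, SE 0.0806, adjusted p = 1.17e-19). The p threshold alone was passed by 57.1% of tested genes there.

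**Figure D3:**
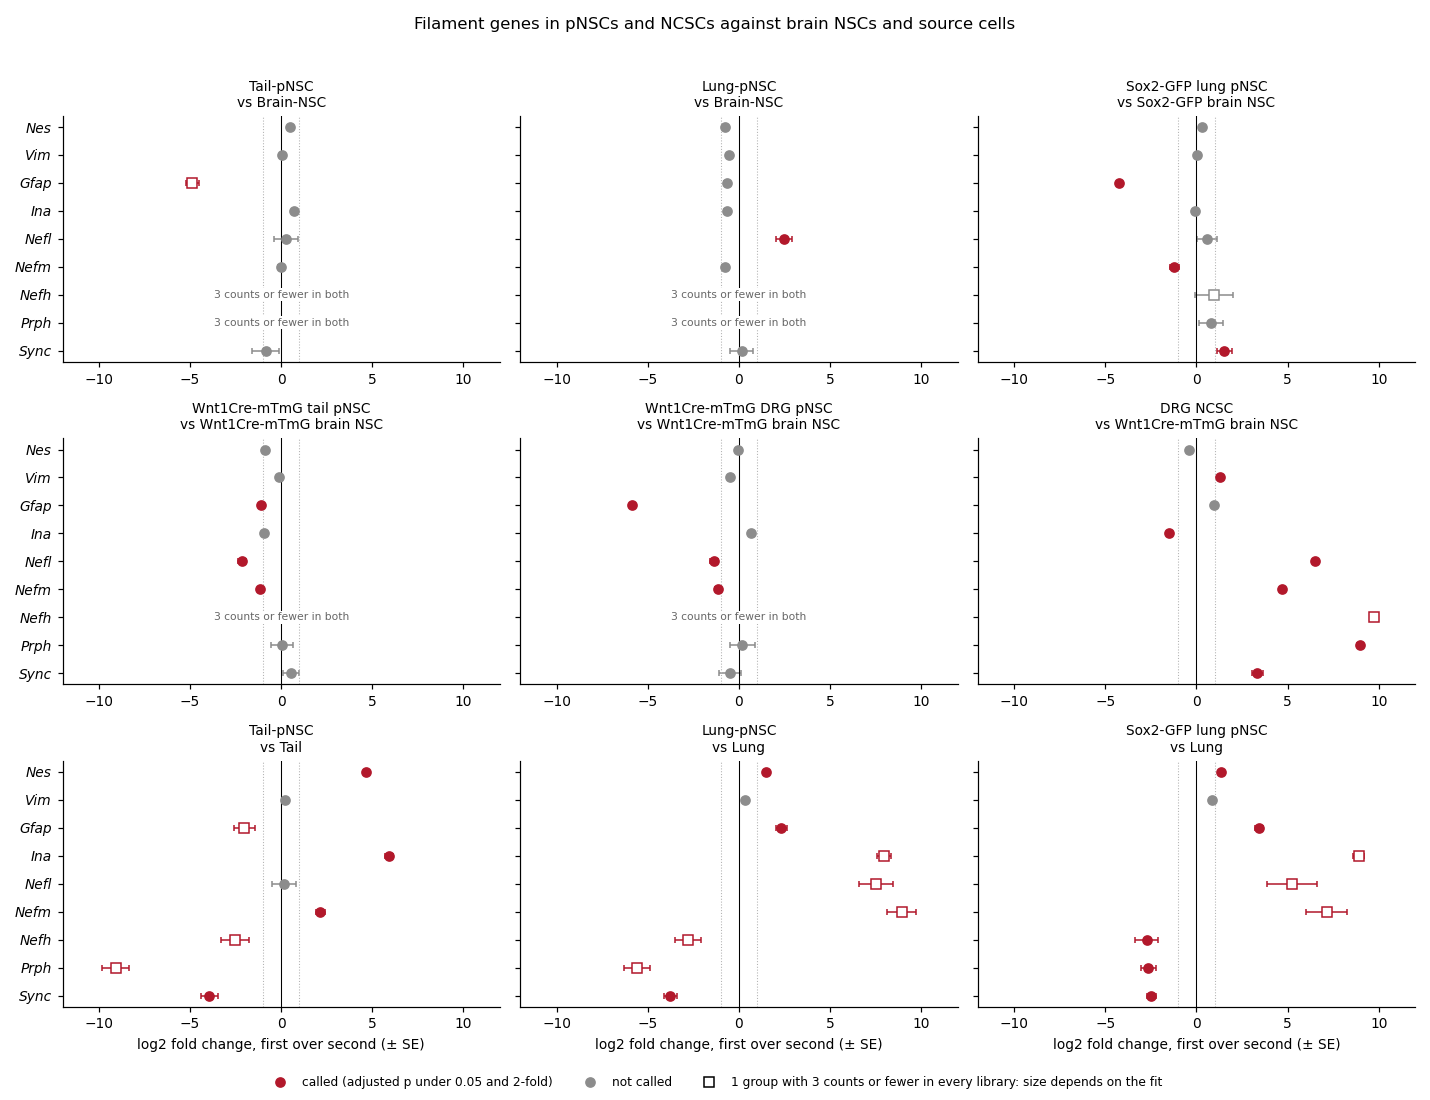
Log2 fold change of each gene with its SE in 9 of the comparisons; red points were called (adjusted p under 0.05 and at least 2-fold), grey points were not, and open squares have 1 group at or under 3 counts, where the fitted value is no bound. Nes and Vim stay within 1 of 0 in the comparisons of pNSCs with brain NSCs, and Gfap is called lower in 4 of those 5.

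Tail-pNSC and Lung-pNSC, the pNSC lines of the Nes-GFP experiment, differed in 4 of the 9 genes, against 12.8% of tested genes (4.92% higher and 7.87% lower). Nes was 2.34-fold (log2 1.23, SE 0.0642, adjusted p = 9.53e-19, edgeR) and Ina 2.65-fold higher in Tail-pNSC (log2 1.40, SE 0.108, adjusted p = 6.75e-14). Nefl was 4.8-fold lower (log2 -2.23), and Gfap was lower by a ratio of 19.7 (95% interval 8.16 to 61.9). Age differed too, since the lung line is from adult and the tail line from postnatal mice, so tissue and age cannot be told apart.

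DRG NCSC was compared with the brain line and with both pNSC lines of its experiment, to ask whether pNSCs carry the filament genes of neural crest stem cells. The 3 comparisons share the DRG NCSC samples, which come from adult wild-type mice, while both pNSC lines come from postnatal Wnt1Cre-mTmG mice, so age and genotype cannot be told apart from cell type. Against Wnt1Cre-mTmG brain NSC, 7 of the 9 genes were called, against 35.5% of tested genes: 6 were higher, against 21.5%, and Ina was lower (2.9-fold, log2 -1.53, SE 0.0929, adjusted p = 1.55e-17), against 14%. Prph was 519-fold higher (log2 8.97, SE 0.161, adjusted p = 3.23e-33, edgeR), Nefl 88.9-fold (log2 6.48), Nefm 25.7-fold (log2 4.69), Sync 10-fold (log2 3.33) and Vim 2.42-fold (log2 1.28). Nefh had 4912 counts in all against 3, a ratio of 912 (95% interval 312 to 4424). Gfap, at log2 0.96 (SE 0.057, adjusted p = 7.18e-18), missed the fold limit and passed it with DESeq2 (1.04), with a stricter filter (1.01), without DRG NCSC replicate 2 (1.00) and without Wnt1Cre-mTmG brain NSC replicate 2 (1.02). Nes was 1.31-fold lower (log2 -0.39). The median log2 fold change over the 9 genes was 3.33, against 0.0095 over all tested genes.

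Both pNSC lines lay far from DRG NCSC in the same genes. In Wnt1Cre-mTmG tail pNSC, 7 of the 9 were called and all were lower, against 37.1% of tested genes called and 22.7% lower (14.4% higher): Nefl 402-fold, Prph 497-fold, Nefm 58.6-fold, Sync 6.96-fold, Gfap 4.21-fold, Vim 2.59-fold, and Nefh by a ratio of 1058 (95% interval 453 to 3259). In Wnt1Cre-mTmG DRG pNSC, grown from the same kind of ganglion, 8 of the 9 were called, against 36.7% (14% higher and 22.7% lower): Prph was 455-fold, Nefl 229-fold, Gfap 114-fold, Nefm 57.4-fold, Sync 14.3-fold and Vim 3.37-fold lower, Nefh was lower by a ratio of 884 (95% interval 302 to 4289), and Ina was 4.55-fold higher (log2 2.18, SE 0.0868, adjusted p = 2.38e-23, edgeR). Nes was not called in either, at log2 -0.51 and 0.33. Without DRG NCSC replicate 3, the counts of called genes stayed at 7, 7 and 8 in the 3 comparisons. Nefh rests on 0 to 3 counts per library on the side of the lines, and its fitted fold moves by over 1.5 times without 1 of them (log2 10.60, -10.55 and -10.64 without Wnt1Cre-mTmG brain NSC replicate 3, Wnt1Cre-mTmG tail pNSC replicate 1 and Wnt1Cre-mTmG DRG pNSC replicate 2).

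Against the source cells Tail or Lung, Tail-pNSC, Lung-pNSC and Sox2-GFP lung pNSC held more Nes, Ina and Nefm and less Prph, Nefh and Sync. Large parts of all genes differ here, and both lung lines share the Lung samples. In Tail-pNSC against Tail, 7 of the 9 genes were called, against 46.7% of tested genes (15.4% higher and 31.3% lower). Nes was 25.6-fold higher (log2 4.68, SE 0.0774, adjusted p = 1e-35, edgeR), Ina 63.2-fold (log2 5.91, SE 0.21, adjusted p = 5.68e-25) and Nefm 4.5-fold (log2 2.14, SE 0.248, adjusted p = 8.24e-10). Sync was 15.5-fold lower (log2 -3.95) and Prph at least 23.6-fold lower. Gfap was lower by a ratio of 4.23 (95% interval 1.53 to 14.5) and Nefh by 6.12 (95% interval 2.08 to 24.4). Both of these rest on few reads: without Tail replicate 2 Gfap was no longer called (adjusted p = 0.067), and without Tail replicate 1 Nefh was not (adjusted p = 0.102). The Ina fold moved with the 10 and 3 counts in Tail, to log2 6.82 and 5.30 without Tail replicate 1 and 2, and Sync to -4.67 without Tail-pNSC replicate 1, while Nefh moved to -3.36 without Tail-pNSC replicate 2. Vim differed by log2 0.21, which turned to -0.011 when genes under a mean of 100 counts were left out before scaling. Scaling moved the median of all genes in the 3 comparisons with source cells, by -0.17, -0.16 and -0.19 with DESeq2 and by -0.22, -0.18 and -0.20 with that filter (Tail-pNSC, Lung-pNSC and Sox2-GFP lung pNSC), which bears on Vim and on no called direction.

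In Lung-pNSC against Lung, 8 of the 9 were called, against 54.7% of tested genes (20.8% higher and 34% lower). Nes was 2.86-fold higher (log2 1.52, SE 0.0666, adjusted p = 3.61e-22, edgeR), Gfap 5.16-fold (log2 2.32), Nefm at least 19.8-fold and Nefl at least 7.4-fold, and Ina by a ratio of 310 (95% interval 55.3 to 12276), since Lung had 1 count of it in all. Sync was 14.2-fold lower, Nefh lower by a ratio of 7.36 (95% interval 2.55 to 29) and Prph by 61.2 (95% interval 10.5 to 2460). In Sox2-GFP lung pNSC against Lung, the same 8 were called in the same directions, against 55% of tested genes (20.9% higher and 34.1% lower): Nes was 2.54-fold, Gfap 11.2-fold, Nefm at least 5.61-fold and Nefl at least 1.49-fold higher, and Ina by a ratio of 592 (95% interval 106 to 23415). Nefh was 7.03-fold, Prph 6.55-fold and Sync 5.63-fold lower. Vim was 1.24-fold and 1.78-fold higher than in Lung in the 2 lines (log2 0.32 and 0.83). The Sox2-GFP line is from postnatal lung and another experiment than Lung, whose age is not given per sample.

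Some low values in these comparisons moved by over 1.5 times without 1 library and stayed called. For Ina, log2 was 10.33 and 7.21 in Lung-pNSC, and 11.24 and 8.12 in Sox2-GFP lung pNSC, without Lung replicate 1 and 2. For Prph it was -4.62 and -7.80 without Lung-pNSC replicate 1 and 2, and -3.50 without Sox2-GFP lung pNSC replicate 2. For Nefh it was -3.57 without Lung-pNSC replicate 1 and -3.35 without Sox2-GFP lung pNSC replicate 3. Sync in Lung-pNSC was -4.69 without Lung-pNSC replicate 1.

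Markers of other cell types were far higher in the source cells than in the pNSC lines compared with them. Mesenchymal markers (7 of 7 above 3 counts) summed to 72436 to 74336 cpm in Tail and 4505 to 4614 cpm in Lung, against 7.31 to 24.7 cpm in Tail-pNSC, Lung-pNSC and Sox2-GFP lung pNSC. Skeletal muscle markers summed to 306 to 312 cpm in Tail (6 of 6 above 3 counts) and 104 to 106 cpm in Lung (5 of 6, Myog at 0), against 1.77 to 18.4 cpm in those lines. Erbb3, a Schwann cell and neural crest marker, lay between 103 and 109 cpm in Tail and between 78.8 and 80.5 cpm in Lung, against at most 0.447 cpm. Of the 7 markers on that list, 7 were called lower in Tail-pNSC than in Tail, where 31.3% of all tested genes were. Against Lung, 5 were lower and 1 higher in Lung-pNSC (34% and 20.8% of all tested genes). In Sox2-GFP lung pNSC, 5 were lower than in Lung (34.1%) and 0 higher. In Lung, markers of endothelium (3953 to 4027 cpm), leukocytes (4179 to 4208 cpm) and lung epithelium (25182 to 25750 cpm) were also high, with 4 of 4 above 3 counts each. The part of these cells in the Sync, Prph and Nefh levels was not tested.

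The tail and the lung line each exist in 2 experiments, and the difference of a line from its own brain NSCs was compared between experiments as an interaction in the same fit. The experiments differ in reporter, sort and brain line, the lung lines also in age, so these cannot be told apart. For the tail lines, 5 of the 9 genes were called, against 16% of tested genes (8.96% higher and 7.05% lower). Gfap was below brain by a ratio of 30.7 in Tail-pNSC and 2.16-fold below in Wnt1Cre-mTmG tail pNSC (difference of log2 values 3.76, SE 0.396, adjusted p = 2.69e-10, edgeR). Nes and Ina were above brain in the former and below in the latter (Nes -1.35, SE 0.0821, adjusted p = 1.03e-16; Ina -1.68, SE 0.131, adjusted p = 1.16e-13). Nefl (-2.41, SE 0.707, adjusted p = 0.00436) and Nefm (-1.15, SE 0.206, adjusted p = 1.2e-05) did not pass the test against brain in the former and were below it in the latter. Nefm fell under the fold limit without Tail-pNSC replicate 1 (-0.91) or Brain-NSC replicate 2 (-0.97), and Nefl moved to -3.01 without Brain-NSC replicate 1.

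For the lung lines, 3 of the 9 genes were called, against 14.1% of tested genes (5.89% higher and 8.24% lower). Gfap was 1.55-fold below brain in Lung-pNSC and 18.8-fold below in Sox2-GFP lung pNSC (-3.59, SE 0.215, adjusted p = 7.12e-17, edgeR). Nes was below brain in the former and above in the latter (1.06, SE 0.0825, adjusted p = 1.24e-13), and with DESeq2 this difference was just under the limit (0.997). Nefl (-1.90, SE 0.765, adjusted p = 0.0394) lost its call without any 1 of 6 libraries, with adjusted p from 0.0545 to 0.286: Brain-NSC replicate 2, Lung-pNSC replicate 2, Sox2-GFP brain NSC replicates 2 and 3, and Sox2-GFP lung pNSC replicates 1 and 2. Without Brain-NSC replicate 1 it was -2.52. Vim differed between experiments by under 2-fold in both tissues (-0.14 for tail, 0.57 for lung), and in the lung interaction 46.9% of tested genes passed the p threshold alone.

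**Figure D4:**
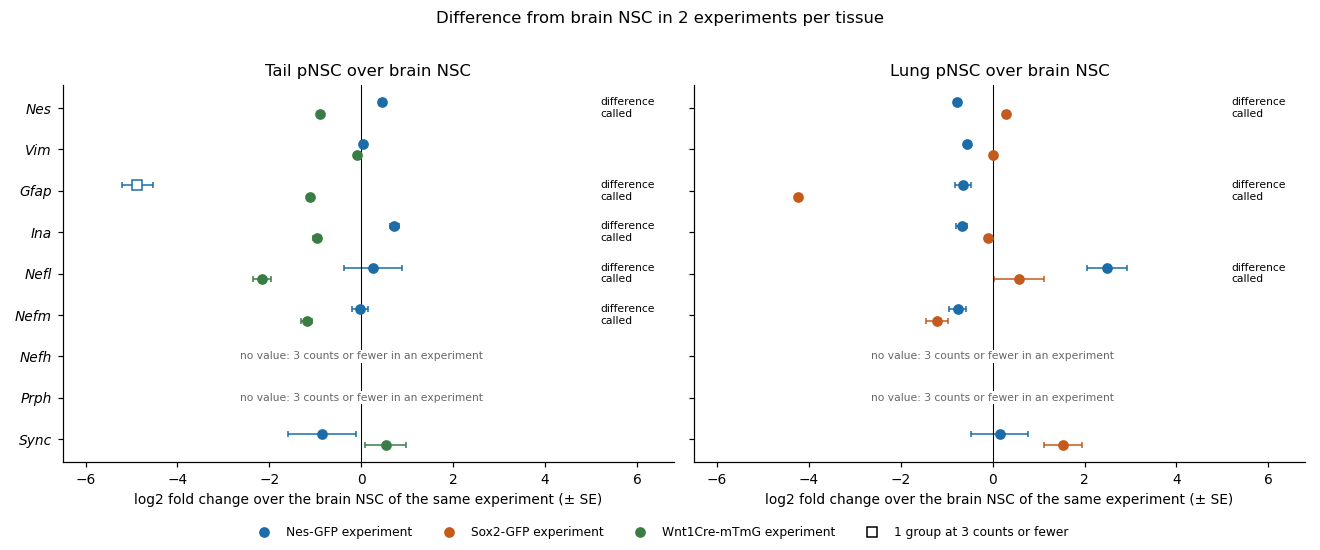
Log2 fold change (± SE) of each gene against the brain line of the same experiment, for tail pNSCs in the Nes-GFP and Wnt1Cre-mTmG experiments and lung pNSCs in the Nes-GFP and Sox2-GFP experiments. Gfap shifts by 3.76 between the tail lines and by -3.59 between the lung lines, and Nefh and Prph give no value where an experiment has 3 counts or fewer on both sides.

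The levels of the members were compared with each other over the 11 group means of log2(cpm + 1), as a description of 11 points that share scaling and, for several members, turn on DRG NCSC alone. Nes went with Ina (r = 0.854), Nefl with Nefm (0.94), Nefm with Vim (0.938) and Nefh with Prph (0.977). Nes and Nefh gave 0.0607, and Ina ran against Sync (-0.754). Of all tested genes reaching 10 cpm in some group, those most like Nes were Zfp719 (0.975), Jrk (0.957) and Gnaz (0.954). For Vim they were Sumf2 (0.954), Dctn3 (0.944) and Nefm, for Gfap Dctn2 (0.911), Dhrs1 (0.905) and Luzp2 (0.901), and for Ina Rpp30 (0.983), Rbx1 and Psmg3 (both 0.976).

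The likeness of the neurofilament group rests on DRG NCSC. For Nefl the nearest genes were Vgf (0.98), Mmp10 and Rpsa-ps10 (both 0.967), for Nefm Nefl (0.94) and Vim (0.938), and for Nefh Nts (0.999), Trpv1 (0.998) and Lrtm1 (0.996). Trpv1 is the capsaicin receptor of pain-sensing neurons, and Nts encodes the peptide neurotensin. For Prph they were Il11 (0.994), Mlip (0.993) and Wnt16 (0.993). For Sync they were Tpm1 (0.996), which encodes a tropomyosin of actin filaments, Rnh1 and Zbtb38 (both 0.984). By ranks the values for Nefh and Prph fell to between 0.534 and 0.679, since the other groups are near 0. Those for Nefl became 0.645 (Vgf), 0.37 (Mmp10) and 0.809 (Rpsa-ps10). Among the members, Nefh with Prph fell to 0.433, while Nefl with Nefm gave 0.818.

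Genes that work with filaments were tested as lists. They are given here as counts of called genes. Of 7 linkers of filaments to junctions, actin and microtubules (Plec, Dst, Macf1, Eppk1, Dsp, Ppl, Evpl), none was called in 4 of the 5 comparisons of pNSCs with brain NSCs, and 1, Evpl, was lower in Wnt1Cre-mTmG tail pNSC. Against the source cells Tail or Lung, 6 of 7 were lower in each of the 3 comparisons, where 31.3% to 34.1% of all tested genes were. In DRG NCSC against Wnt1Cre-mTmG brain NSC, 5 were higher and 1 lower, against 21.5% and 14% of all tested genes, with Plec, the plectin that ties vimentin to other filaments, at 1116 against 21.7 cpm. Of the 3 nuclear lamins, Lmna was 902 cpm in DRG NCSC against 26.9 cpm (log2 5.07, SE 0.0543, adjusted p = 6.65e-42, edgeR) and Lmnb1 was 153 against 404 cpm (log2 -1.40, SE 0.0317, adjusted p = 2.57e-31). Of 4 further filament genes (Des, Synm, Bfsp1, Bfsp2), all 4 were higher in DRG NCSC than in Wnt1Cre-mTmG brain NSC, led by level by Synm, a partner of vimentin, at 58.3 against 5.63 cpm.

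Of 13 kinases, chaperones and turnover factors of filaments, 0 to 3 were called per comparison of pNSCs with brain NSCs, against 8.64% to 16.9% of all tested genes. Padi2, which modifies filament proteins, was 1.96 cpm in Sox2-GFP lung pNSC against 22 cpm in Sox2-GFP brain NSC (log2 -3.49, SE 0.109, adjusted p = 4.49e-26, edgeR). It was higher than in brain NSCs in Lung-pNSC (2.12 against 0.845 cpm, log2 1.34, adjusted p = 7.2e-05) and in Wnt1Cre-mTmG tail pNSC (4.16 against 1.93 cpm, log2 1.11, adjusted p = 1.3e-06). Cryab, a chaperone of filaments, was 40.2 cpm in Wnt1Cre-mTmG DRG pNSC against 6.27 cpm in the brain line (log2 2.68, SE 0.0948, adjusted p = 8.42e-24), and lower in Lung-pNSC than in Brain-NSC, at 13.4 against 56.0 cpm (log2 -2.07, SE 0.0784, adjusted p = 1.05e-22). Of 13 transcription factors linked to filament genes, at most 4 were called against brain in any pNSC line, against 8.64% to 16.9% of all tested genes. The most were called in Wnt1Cre-mTmG tail pNSC, 2 higher and 2 lower, against 8.41% and 8.47%. In DRG NCSC 3 were higher and 7 lower than in Wnt1Cre-mTmG brain NSC, against 21.5% and 14% of all tested genes.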

How the data were processed

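RNA was polyA-selected and sequenced single-end on a NextSeq500. According to the submitters' processing notes and the study's methods, the authors aligned the reads to GRCm38 with HISAT2, used Cufflinks and counted reads per gene with HTSeq. The deposited values are these raw counts, with no normalization, for 28244 genes, of which 5147 had none. Strand setting, counting mode and annotation release are not given in the sources used here.

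All 28 samples were fitted together in edgeR 4.0.16 (R 4.3.3): filterByExpr (minimum count 10, minimum total 15), TMM scaling (factors 0.901 to 1.05), 11 groups, no covariate, and two-sided quasi-likelihood tests with 17 residual degrees of freedom. P-values were adjusted over all 17393 genes in each of 13 comparisons and 2 interactions, and a call also needed at least a 2-fold change (log2 of 1 or more in either direction). The study states no such test. Each SE was worked out from the test, as the absolute log2 fold change divided by the square root of its F value. Levels are TMM-scaled cpm, and levels per kb use the length of 1 GENCODE transcript per gene. A fold against a group at 0 is a bound against 3 counts per library. A group at 1 to 3 counts per library, for which a bound had been planned, is given as the ratio of summed counts with an exact binomial 95% interval, and no fold is given where both groups are at or under 3 counts. Intervals cover counting error only. Library totals of 9808246 to 22637031 counts set the precision of low values.

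The members, the 15 further lists and the tests were chosen with earlier results of these data known. The genes named are the 9 members, the 3 genes most like each, and up to 4 called genes with the largest change per list and comparison. Some marker genes and list sums, 1 gene among those most like Nefm and the rod-end stretch of Vim are not reported here. Promoter windows are from RefSeq, and transcripts from GENCODE. Alternatives were DESeq2 1.42.0, upper-quartile scaling, no filter, a filter at a mean of 100 counts, fits per experiment, a replicate block, no fold limit, Spearman's rho and leaving out each sample. On simulated counts, edgeR recovered 93 to 99 of 100 genes changed by log2 1.5, and 100 of 100 changed by log2 3, over the 4 contrasts simulated, with at most 2 false calls. The simulation changed no genes of low count and used 1 fixed spread between replicates for all groups. These shares therefore do not cover members with few counts or the wider spread of DRG NCSC. Figures were drawn with matplotlib 3.10.9 (Python 3.11.15).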

Additional observations from a re-analysis of the deposited data

Results flagged for a closer look

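The differences from brain NSCs were not alike in the 2 experiments that hold a line of the same tissue. By the interaction in edgeR over all 28 samples, with p-values adjusted over all genes, 5 of the 9 filament genes differed between the tail lines, where 16% of all tested genes did, and 3 between the lung lines, where 14.1% did. Each value here is the log2 fold change against brain in the Wnt1Cre-mTmG or Sox2-GFP experiment minus that in the Nes-GFP experiment.

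For the tail lines the differences were 3.76 for Gfap, -1.35 for Nes, -1.68 for Ina, -2.41 for Nefl and -1.15 for Nefm. For the lung lines they were -3.59 for Gfap, 1.06 for Nes and -1.90 for Nefl. The Gfap difference has opposite signs in the 2 tissues. Each value is taken against the brain lines of 2 experiments, and the brain lines differed among themselves. The 3 brain lines held 108, 46.4 and 4.12 cpm of Gfap on average, and 602, 1682 and 1410.2 cpm of Nes (Sox2-GFP, Wnt1Cre-mTmG and Brain-NSC). Reporter, sort and brain line differ with the experiment, and their parts cannot be told apart. The Nefl value of the lung lines rests on 0 to 8 counts per library in 3 of its 4 groups and 24 to 26 in Lung-pNSC.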

How the results depend on the processing

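Of 1402 values recomputed for 122 results, 1354 kept their direction and their side of the threshold or moved by less than the replicate spread or 1.5 times. Without the fold limit the number of filament genes called became 3 (Tail-pNSC against Brain-NSC), 6 (Lung-pNSC against Brain-NSC), 6 and 5 (Wnt1Cre-mTmG tail and DRG pNSC against brain), 5 (Wnt1Cre-mTmG tail against DRG pNSC) and 5 (the lung interaction), where 45.9%, 36.6%, 57.9%, 41.1%, 57.1% and 46.9% of all tested genes pass the same rule. Leaving out 1 library moved the count in Lung-pNSC against Brain-NSC between 1 and 2. Group means of at least 1 cpm moved by up to 3.84% with upper-quartile scaling, 9.84% with DESeq2 size factors, and 1.97% to 32.2% without 1 library, the largest being Prph in Lung.

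Directions turned only for genes not called: Vim in Sox2-GFP lung pNSC against brain (-0.032 with DESeq2, -0.037 with upper-quartile scaling, -0.018 without a filter, -0.0090 with the stricter one, and -0.029 to -0.0072 without 1 library), Vim in Tail-pNSC against Tail (-0.011 with the stricter filter), and Nefl there (-0.00021 with DESeq2, -0.056 with the stricter filter, -0.33 to 0.57 without 1 library). Without 1 library, the same held for Nefl (-0.17 to 0.87) and Nefm (-0.30 to 0.22) in Tail-pNSC against Brain-NSC, Sync in Lung-pNSC against Brain-NSC (-0.79 to 0.66), Prph in Sox2-GFP lung pNSC (-0.022 to 1.24), Wnt1Cre-mTmG tail pNSC (-0.16 to 0.45) and Wnt1Cre-mTmG DRG pNSC (-0.031 to 0.58) against brain, and Nefm between the last 2 lines (-0.17 to 0.081). The cause was not tested. With only the groups of the experiment, Sync between those lines passed (1.03, adjusted p = 0.0489, edgeR).

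The replicate numbers in the labels are not said to pair samples, and deviations of same-numbered samples correlated at -0.0164 to 0.0519, none over 0.1. With a replicate block, 1 call was lost, Nefl in the lung interaction (-1.92, adjusted p = 0.0502, edgeR), which took that count from 3 to 2, and no other count changed. The stricter filter leaves out Sync, which then has no value, and leaves 11796 genes, of which 808 to 5378 were called per comparison, against 1502 to 9571 of 17393. With 2 to 3 libraries a group, values under about 10 counts per library are limited by depth.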
